A study of Mus musculus with 10 samples.

Results

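Matrix metalloproteinases, their tissue inhibitors and the proteoglycan decorin were followed through castration and regrowth in sorted luminal cells of the mouse prostate. The set has 10 listed genes: the inhibitors Timp1, Timp2, Timp3 and Timp4, the proteases Mmp2, Mmp7, Mmp14, Mmp15 and Adamts1, and decorin, Dcn. Each gene was read from the array row annotated with its symbol alone, which gave 9 of the 10 genes, each with 1 row, out of 30142 genes in all. Mmp15 is not analysed here. The set was chosen by name and with the castration result known: the lower levels of Timp4 and Dcn in castrated than in intact arrays were part of the choice. The difference between castrated and intact arrays is therefore given for these genes as a description, with no test.

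All mice were male and carried Hoxb13-rtTA and TetO-H2BGFP, a pair of transgenes that puts a histone-bound green fluorescent protein under a doxycycline-dependent activator driven by Hoxb13. Doxycycline was in the drinking water of every group at 2 mg/ml for the last 1 week. Intact mice were untreated (n = 3 arrays). The stated age of 12 weeks is that at castration, and no age at collection is named for intact mice. Castrated mice had both testes removed at that age and their prostates regressed for 6 weeks (n = 3). Regenerated mice were castrated in the same way and then carried testosterone implants under the skin for 4 weeks (n = 4). The reporter marks cells with Hoxb13 activity and no others, so the cells are those in which that promoter worked. Sorting took fluorescent cells with CD24 and intermediate CD49f and left out cells with the immune markers CD45 or CD11b or a macrophage antigen. Arrays of a group are labelled as biological replicates, with no word on pooling of mice, and p-values cover only the spread among these arrays. No castrated group was left as long as the regenerated one without testosterone, so time since castration cannot be told apart from testosterone.

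Matrix metalloproteinases are zinc enzymes that cut proteins of the extracellular matrix and of the cell surface. Timps bind the active site of these enzymes and block it, and Timp3 also blocks several enzymes of the related Adam and Adamts families. Decorin is a small proteoglycan that binds collagen fibrils and growth factors such as TGF-beta, and it is usually known as a product of fibroblasts. The prostate shrinks after castration and regrows when androgen returns, and remodelling of its matrix goes along with both.

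Values are log2 RMA intensities, and a difference of 1 is a factor of 2 in signal. They are arbitrary units that can be compared between arrays for 1 gene and not between genes. Background control probes reached 6.40 in castrated replicate 3 and 4.66 to 5.58 in the other arrays, so values at or under 6.40 may hold little transcript and changes there can be compressed. All 7 measured luminal markers were above 6.40. Their mean level per array was 14.25 to 14.44 in intact, 14.30 to 14.81 in castrated and 13.70 to 14.29 in regenerated arrays. Hoxb13 and Cd24a, among the 7, belong to the sort itself, so their signal is no test of the label. Single luminal markers changed within that mean. Cd24a, the gene of the sort marker CD24, rose after castration by 1.72 ± 0.27 log2 (SE), Krt18 by 1.41 ± 0.18 and Krt8 by 1.37 ± 0.35 (limma adjusted p = 0.00358, 0.00119 and 0.0364). Krt18 and Krt8 fell with testosterone by 1.69 ± 0.16 and 2.05 ± 0.32 (adjusted p = 0.00039 and 0.00517). The part of these 3 genes in the results was not tested. Hoxb13, whose promoter drives the reporter, was itself at 10.39, 7.74 and 9.47 in intact, castrated and regenerated arrays. It fell by 2.65 ± 0.42 log2 (SE) after castration and rose by 1.74 ± 0.39 with testosterone (limma adjusted p = 0.00416 and 0.0321), as Timp4 and Dcn differ, and its part in their differences was not tested. Of 53 markers of fibroblasts, smooth muscle, endothelium, adipocytes, basal cells and leukocytes, 45 stayed at or under 6.40 in all 10 arrays. Of the 7 basal and 10 leukocyte markers, Krt17, Krt14 and Itgam rose after castration by 1.31 ± 0.16, 0.52 ± 0.14 and 0.38 ± 0.08 (limma adjusted p = 0.000875, 0.046 and 0.0181), and Krt17 fell by 1.15 ± 0.15 with testosterone (adjusted p = 0.0016). Krt17, Krt14 and Itgam stayed under 6.40 in every array. Krt15, another basal marker, was above it in all 10 arrays, with means of 9.95, 11.14 and 12.48 in intact, castrated and regenerated arrays. Its regenerated mean was 2.53 ± 0.58 above the intact one and was not called (limma adjusted p = 0.255). Dst (6.77 to 8.10) and Cd68 (6.92 to 9.70) were also above 6.40 in all arrays, Itgb4 and Lyz2 in some, and none of these was called. Cd3e, a T cell gene, ran from 5.40 to 8.18 in intact, 8.26 to 11.76 in castrated and 5.73 to 7.38 in regenerated arrays and fell by 4.04 ± 0.87 with testosterone (adjusted p = 0.0253), while Ptprc, the gene of CD45, stayed between 3.55 and 3.76. The part of these genes in the results was not tested. In these sorted populations, fewer cells that carry a transcript and less of it per cell cannot be told apart.

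Timp4 was the member with the largest difference. Its level was 14.61, 14.72 and 15.41 in the intact arrays, 6.48, 7.26 and 5.48 in the castrated arrays, and 14.99, 13.35, 14.21 and 11.16 in the regenerated arrays. All 3 castrated arrays lay below every other array, and regenerated replicate 4 was the lowest of its group. The group means were 14.91 ± 0.43 (SD, n = 3), 6.41 ± 0.89 (n = 3) and 13.43 ± 1.65 (n = 4). Castrated arrays were lower than intact arrays by 8.51 ± 0.83 log2 (SE), a 364-fold difference in signal. Among all 30142 genes ordered by that difference Timp4 stood at place 10 from the lowest end. Castrated replicate 3, at 5.48, lay under the highest background value of that array, so the lower level may be nearer to nothing than the numbers show.

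Dcn had the same order of groups. It read 12.77, 12.54 and 11.40 in intact arrays, 6.88, 9.09 and 6.63 in castrated arrays, and 11.62, 11.01, 11.89 and 10.94 in regenerated arrays. The castrated arrays did not overlap with the others, and castrated replicate 2 was the highest of them. The means were 12.23 ± 0.73 (SD, n = 3), 7.53 ± 1.35 (n = 3) and 11.37 ± 0.46 (n = 4). The castrated mean was lower than the intact mean by 4.70 ± 0.61 log2 (SE), which put Dcn at place 43 from the lowest end. In all 10 arrays Dcn was above the highest background value of the array.

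**Figure D1:**
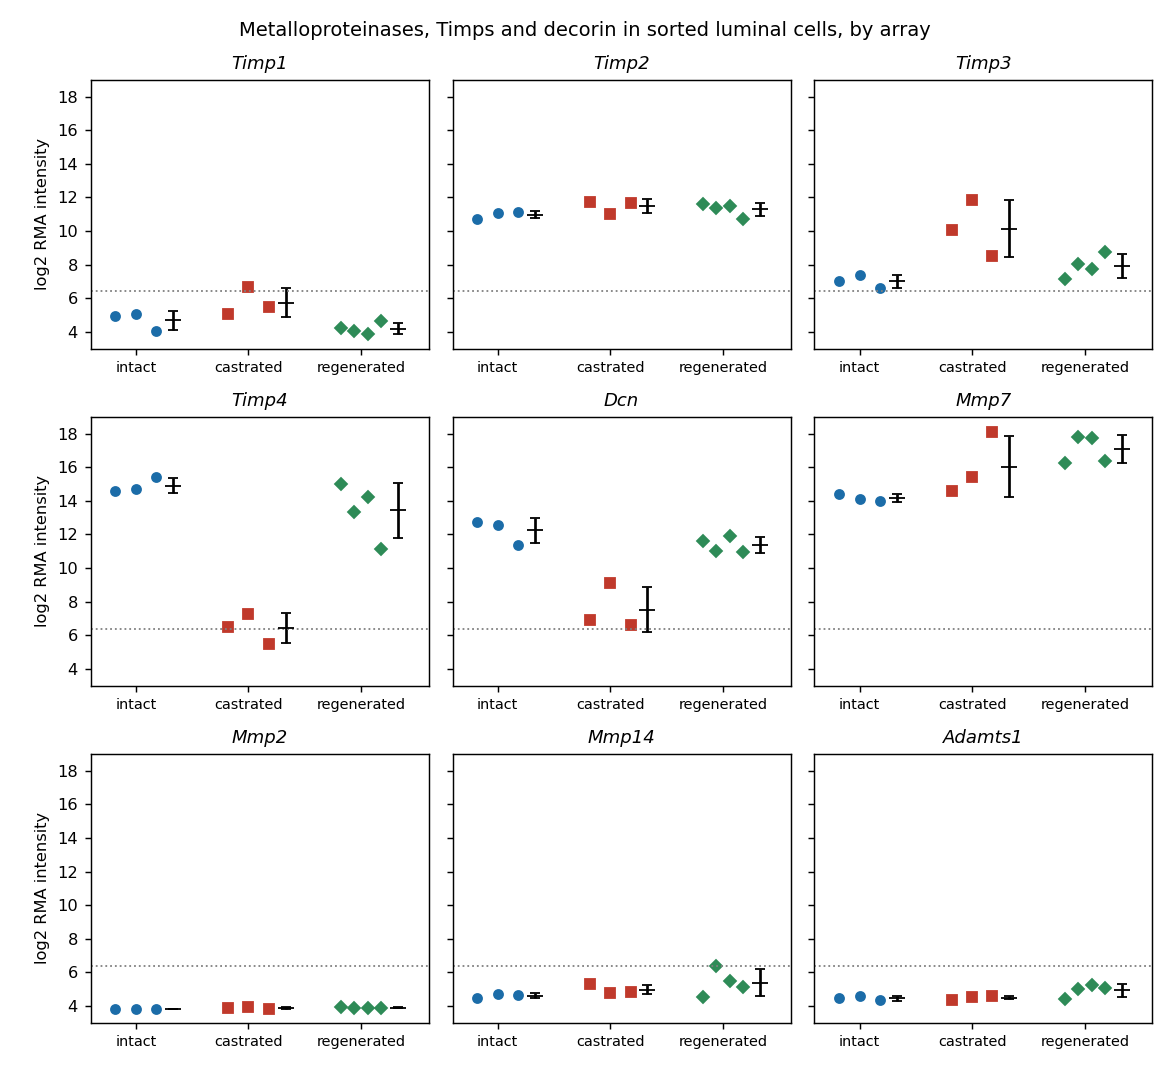
Each panel plots the log2 RMA intensity of 1 gene (vertical axis, same scale in all panels) in the 3 intact, 3 castrated and 4 regenerated arrays, where each point is 1 array, the black mark beside a group its mean with the SD, and the dotted line the highest background control value (6.40). Timp4 and Dcn are lowest in the castrated arrays. The mean of Timp3 is highest there, with castrated replicate 3 below regenerated replicate 4. Mmp7 lies between 16.28 and 17.81 in regenerated arrays against at most 14.42 in intact ones, and Mmp2 and Adamts1 stay under the line.

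The other 3 inhibitors did not share this pattern. Timp3, the inhibitor that is held in the matrix, read 7.01, 7.35 and 6.62 in intact, 10.03, 11.87 and 8.52 in castrated, and 7.11, 8.06, 7.72 and 8.77 in regenerated arrays. Its castrated values were above all intact ones, and the lowest of them, castrated replicate 3, lay below regenerated replicate 4. The castrated mean of 10.14 ± 1.68 (SD, n = 3) was 3.15 ± 0.70 log2 (SE) above the intact mean of 6.99 ± 0.37 (n = 3). Timp1, a secreted inhibitor, was near background: 4.95, 5.07 and 4.02 in intact, 5.03, 6.67 and 5.48 in castrated, and from 3.89 to 4.63 in regenerated arrays. Only castrated replicate 2 was above 6.40, and every regenerated value was below every castrated one. Timp2, which both inhibits Mmp2 and takes part in its activation at the cell surface, was well above background in all arrays. It ran from 10.73 to 11.14 in intact, from 10.98 to 11.72 in castrated and from 10.73 to 11.59 in regenerated arrays, and the 3 groups overlapped.

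Timp1, Timp3 and Timp4 each lie within the span of a synapsin gene, Syn1, Syn3 and Syn2 respectively, in the RefSeq table for GRCm38.p6. The rows of the 3 synapsin genes stayed under 6.40 in every array. Syn2 was at 3.88 ± 0.14 (SD, n = 3) in intact, 3.82 ± 0.06 (n = 3) in castrated and 3.91 ± 0.07 (n = 4) in regenerated arrays, and Syn3 was at 5.15 ± 0.02, 4.93 ± 0.20 and 4.95 ± 0.20. None of the 3 passed limma's test in any of the 3 comparisons, and none had an unadjusted p under 0.05. The difference in Timp4 was thus not seen in the row of the gene that surrounds it.

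Of the proteases, Mmp7 had by far the clearest signal above background. Mmp7, or matrilysin, is a small secreted enzyme of glandular epithelia that lacks the hemopexin domain of most of its relatives. Its level was 14.42, 14.09 and 13.99 in intact arrays, 14.60, 15.43 and 18.10 in castrated arrays, and 16.28, 17.81, 17.76 and 16.40 in regenerated arrays. Intact arrays were the lowest and the closest to each other, and castrated replicate 3 was the highest of all 10. The castrated mean was 16.04 ± 1.83 (SD, n = 3), above the intact mean of 14.17 ± 0.23 (n = 3) by 1.88 ± 0.77 log2 (SE), and by 0.85 without castrated replicate 3. The highest values of Mmp7 come near the top of the scale, where the largest value of the whole table was 19.93.

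The other measured proteases were at the level of background. Mmp2, gelatinase A, lay between 3.80 and 3.94 in all 10 arrays. Adamts1, an enzyme that cuts the proteoglycans versican and aggrecan, lay between 4.33 and 5.24, and neither gene was above the highest background value of its own array in any array. Mmp14, the membrane-bound enzyme that activates Mmp2, ran from 4.46 to 4.71 in intact, from 4.79 to 5.29 in castrated and from 4.52 to 6.41 in regenerated arrays, and it passed its array's background in 4 of 10 arrays. For these 3 genes the values do not show how much of the transcript is present.

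Promoters are printed for 3 genes because these are the members with the largest differences among those in the RefSeq promoter table, 1 lower (Timp4) and 1 higher (Timp3) in castrated arrays and 1 higher in regenerated than in intact arrays (Mmp7). Of the 9 measured members 7 are in that table. Each run holds the 250 bases before an annotated start site in GRCm38.p6, 5′ to 3′ on the strand of the gene, which is minus for Timp4 and plus for Timp3 and Mmp7. Capitals mark matches to any of 4 motifs. These were the androgen receptor half-site AGAACA, the AP-1 element TGANTCA, the GC box GGGCGG and the TATA box TATAAA, all searched on both strands.
Timp4, chr6:115252206-115252455: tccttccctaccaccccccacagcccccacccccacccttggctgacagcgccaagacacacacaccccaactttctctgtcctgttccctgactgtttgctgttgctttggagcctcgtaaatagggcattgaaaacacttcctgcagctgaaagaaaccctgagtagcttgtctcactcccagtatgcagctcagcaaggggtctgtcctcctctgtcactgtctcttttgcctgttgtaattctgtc
Timp3, chr10:86300162-86300411: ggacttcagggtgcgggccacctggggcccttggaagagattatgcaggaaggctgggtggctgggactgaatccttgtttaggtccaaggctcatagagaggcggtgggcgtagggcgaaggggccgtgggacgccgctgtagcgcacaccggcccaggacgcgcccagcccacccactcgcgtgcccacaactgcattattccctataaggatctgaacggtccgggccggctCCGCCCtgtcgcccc
Mmp7, chr9:7691840-7692089: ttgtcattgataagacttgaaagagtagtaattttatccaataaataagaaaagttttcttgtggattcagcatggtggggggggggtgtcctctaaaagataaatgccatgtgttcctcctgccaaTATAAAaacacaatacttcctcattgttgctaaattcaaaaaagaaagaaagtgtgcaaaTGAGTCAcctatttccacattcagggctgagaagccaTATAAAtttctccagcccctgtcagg

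Over windows of 300 bases, which add the 50 bases after the start, the Timp4 promoter held none of the 4 motifs. The Timp3 promoter held GC boxes, 1 of them 15 bases before the start. The Mmp7 promoter held an AP-1 element 63 bases before the start and TATA boxes 123 and 26 bases before it, and the androgen receptor half-site lay within the 50 bases after the start. The window of another Mmp7 start site, further 3′, overlaps this one and held 2 matches to the half-site, 1 of them the same match. By gene, 5 of the 7 members held a GC box, 2 a TATA box, 1 an AP-1 element and 1 the half-site. A GC box was held by 35.7% of all 32851 windows, a TATA box by 13.6%, an AP-1 element by 7.81% and the half-site by 6233 windows. Such matches describe letters in these windows and show no binding.

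Between castrated and intact arrays limma's fit called 4.82% of all 30142 genes higher and 3.19% lower. Since this contrast was used to choose the members, no call is given for them. The difference of Timp3 ran from 2.28 to 3.96 log2 over the fits that left out 1 array. As a description, the median difference of the 9 members was 0.36 log2, against 0.04 over all genes.

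The comparison of regenerated with castrated arrays asks how these transcripts stood after androgen was given back. It uses the same castrated arrays as the contrast behind the choice, so its directions, calls and p-values are not independent of it. The low castrated values of Timp4 and Dcn enter this difference too. For that reason the count of members called cannot be weighed against the share over all genes. Timp4 and Dcn rose and Timp1 fell, 3 of 9 members by limma, where 1.97% of all genes were called higher and 3.01% lower. Timp4 rose by 7.02 ± 0.77 log2 (SE; limma adjusted p = 0.000747), and all 4 regenerated arrays were above all 3 castrated ones. Leaving out regenerated replicate 4, the lowest array, gave 7.78 (adjusted p = 4.87e-05). Dcn rose by 3.83 ± 0.57 (limma adjusted p = 0.00394), also with all 4 arrays above all 3. Both kept their calls under each of the 17 alternative settings, with adjusted p of at most 0.00557 for Timp4 and 0.02 for Dcn.

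Timp1 fell by 1.54 ± 0.37 log2 (SE; limma adjusted p = 0.0421), at levels that were mostly under background. The call ended without castrated replicate 2, the highest array (-1.07, adjusted p = 0.114), and without intact replicate 1 (0.0622) or 2 (0.0574), castrated replicate 3 (0.0843) or regenerated replicate 1 (0.0745), 2 (0.11) or 3 (0.103). It also ended with no mean-variance trend (0.0617), with arrays centred on their median (0.0506) and with only the 2 groups in the fit (0.0645). Timp3 was lower in regenerated than in castrated arrays by 2.22 ± 0.66 and did not pass (limma adjusted p = 0.0868). Without castrated replicate 3, its lowest castrated array, the difference was -3.03 (adjusted p = 0.0182), and it also passed with array weights (0.0219), with a filter on low values (0.0364) and with the replicate block (0.0447). Timp2 (-0.17 ± 0.28), Mmp2 (0.05 ± 0.06), Mmp7 (1.02 ± 0.72) and Mmp14 (0.41 ± 0.35) did not pass. Adamts1 (0.43 ± 0.18, limma adjusted p = 0.21) passed only without regenerated replicate 1, at 0.61 (adjusted p = 0.0174).

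**Figure D2:**
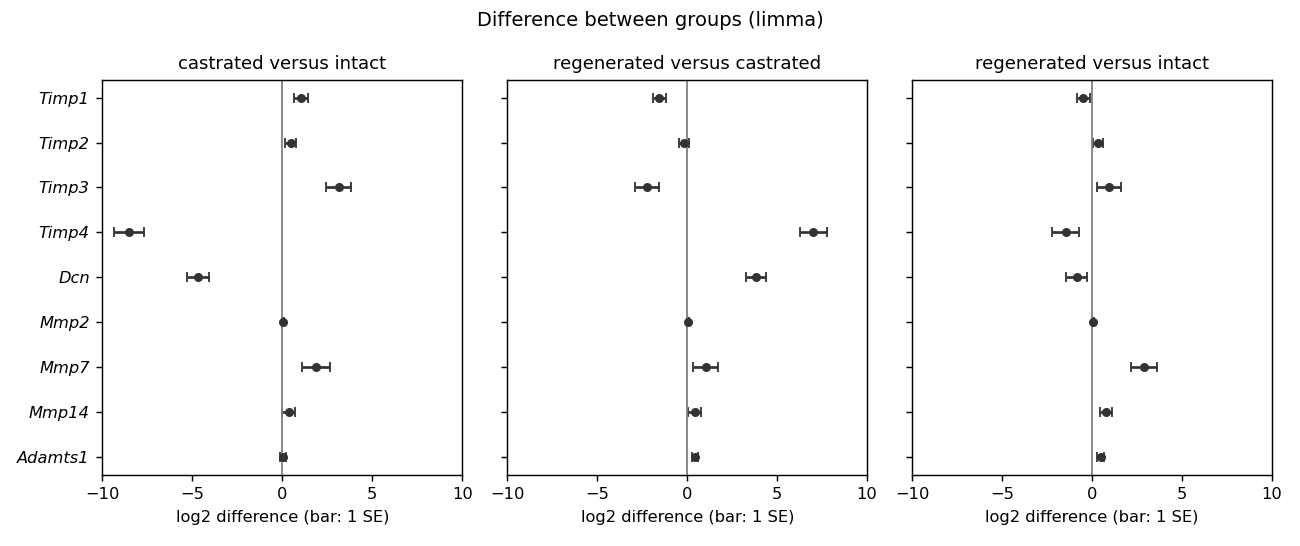
The 3 panels show, for the 9 measured genes, the log2 difference between groups from limma (horizontal axis), castrated minus intact, regenerated minus castrated and regenerated minus intact, where each bar is 1 standard error. The first panel is the contrast behind the choice of genes. Timp4 goes from -8.51 in the first panel to 7.02 in the second, and Mmp7 stands at 2.90 in the third.

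The last comparison, regenerated against intact, asks whether the transcripts stood where they had been in mice never castrated, and it shares the intact arrays with the first. Limma called 0 of the 9 members, and 3 had an unadjusted p under 0.05, which were Mmp7, Mmp14 and Adamts1. An unadjusted p under 0.05 was found for 3019 of all 30142 genes. Over all genes 0.0332% were called higher and 0.00332% lower, 11 genes in total. Mmp7 was 2.90 ± 0.72 log2 (SE) higher in regenerated arrays (95% interval 1.31 to 4.48, limma adjusted p = 0.266). All 4 regenerated arrays were above all 3 intact arrays, and the adjusted p ran from 0.108 to 0.667 over the fits that left out 1 array. It stood at place 24 of 30142 from the highest end of this difference.

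Timp4 was 1.48 ± 0.77 log2 lower in regenerated than in intact arrays (95% interval -3.19 to 0.23, limma adjusted p = 0.582). The value was -0.73 without regenerated replicate 4, the lowest array of its group (adjusted p = 0.731). The measured luminal markers were also lowest of the regenerated group in that array, Hoxb13 at 8.26 and Cdh1 at 14.48 among them. Cd24a, at 15.96, was instead the highest there. The part of that array's make-up in the difference of Timp4 was not tested. In regenerated replicate 1 Timp4, at 14.99, lay within the intact range. Dcn was 0.87 ± 0.57 lower (95% interval -2.14 to 0.40, adjusted p = 0.702), with regenerated replicates 1 and 3 inside the intact range. Timp3 was 0.93 ± 0.66 higher (95% interval -0.53 to 2.38, adjusted p = 0.732). The intervals leave room for differences in either direction for these 3 genes, and the p-values do not show that the levels were the same.

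Dcn is usually a fibroblast product, so the markers of that cell type are set beside it. Of 14 measured fibroblast markers 12 stayed at or under 6.40 in all 10 arrays, Pdgfrb between 3.57 and 3.73, Thy1 between 3.40 and 3.69 and Fbln1 between 3.60 and 3.93. The mean level of the list per array was 4.10 to 4.19 in intact, 4.09 to 4.18 in castrated and 3.97 to 4.31 in regenerated arrays. With 12 of the 14 genes at the level of background, this mean can move little whatever the share of fibroblasts. The part of fibroblasts in the difference of Dcn was not tested. The collagen genes Col1a1 (4.27 to 4.44), Col1a2 (4.01 to 4.24) and Col3a1 (4.01 to 4.17) were under 6.40 in every array. Of the 14 measured interstitial matrix genes Col6a3 alone passed that level, in 4 arrays, with means of 6.59 ± 0.21 (SD, n = 3) in intact, 5.94 ± 0.20 (n = 3) in castrated and 6.29 ± 0.67 (n = 4) in regenerated arrays. Its order of groups was that of Dcn, and its differences did not pass (-0.66 ± 0.33 log2, SE, limma adjusted p = 0.303, and 0.35 ± 0.31, adjusted p = 0.611). Its part in the difference of Dcn was not tested. The exceptions were Apod and Rspo3. Rspo3, a secreted enhancer of Wnt signalling, was 6.35 ± 0.74 (SD, n = 3) in intact, 4.76 ± 0.33 (n = 3) in castrated and 5.72 ± 0.48 (n = 4) in regenerated arrays. Rspo3 fell by 1.59 ± 0.37 log2 (SE) from intact to castrated (limma adjusted p = 0.0258), where 3.19% of all genes were called lower. It was the only one of the 14 fibroblast markers called in any of the 3 comparisons, and its part in the difference of Dcn was not tested. S100a4, Vim and Fap went the other way, under 6.40 in every array. They rose by 0.89 ± 0.30, 0.62 ± 0.25 and 0.25 ± 0.08 and were not called (limma adjusted p = 0.114, 0.187 and 0.0931). Apod reached 7.31 in regenerated replicate 4 and 6.80 in intact replicate 2 and was not called.

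None of the measured relatives of decorin passed the test. Of 13 other small leucine-rich proteoglycans limma called none in any comparison (with 1, 2 and 1 at an unadjusted p under 0.05), and 12 stayed at or under 6.40 in all arrays. Biglycan, Bgn, the closest relative of decorin, and lumican, Lum, were among these. For these 12, changes can be compressed. Only Chad, chondroadherin, passed that level, with a highest value of 7.74 in regenerated replicate 2. Its castrated mean was the lowest, as for Dcn. The difference was -0.62 ± 0.4 log2 (SE) from intact to castrated and 1.46 ± 0.38 from castrated to regenerated arrays. Neither passed, the second narrowly (limma adjusted p = 0.447 and 0.0538). Unlike Dcn, Chad was higher in regenerated than in intact arrays, by 0.84 ± 0.38 (adjusted p = 0.494). Lum, the 1 gene with an unadjusted p under 0.05 from intact to castrated, went the other way from Dcn. It rose by 0.34 ± 0.12 after castration and fell by 0.33 ± 0.11 with testosterone, and neither passed (limma adjusted p = 0.134 and 0.143).

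**Figure D3:**
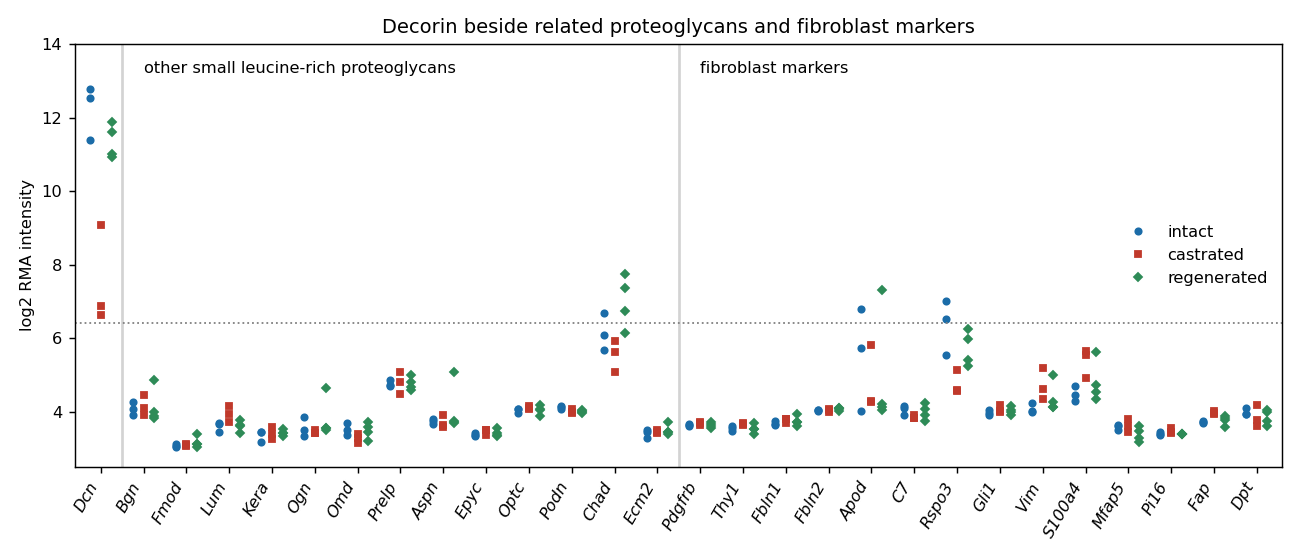
Log2 RMA intensity (vertical axis) of Dcn, of 13 other small leucine-rich proteoglycans and of 14 fibroblast markers, where each point is 1 array, coloured and shaped by group, and the dotted line is the highest background control value (6.40). Dcn lies between 10.94 and 12.77 in intact and regenerated arrays, while the other genes, save Chad, Apod and Rspo3, stay under the line in all arrays.

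The wider system of matrix proteolysis was examined through 10 lists with 123 measured genes. From intact to castrated 8 rose and 1 fell, with a median difference of 0.03 log2, against 0.04 for all genes. These 9 of 123 genes stand beside 2414 of all 30142 genes (4.82% higher and 3.19% lower), a similar share over both directions together. The lists were chosen with earlier results of these data known. Their counts and p-values, here and in the next paragraphs, are therefore not independent of those results. From castrated to regenerated 1 rose and 7 fell, where 1.97% and 3.01% of all genes did, and between regenerated and intact arrays 1 was higher. Of the 123 genes 98 stayed at or under 6.40 in all arrays, all 19 other Mmp genes and all 17 other Adamts genes among them. None of the 19 other Mmp genes was called in any comparison (3, 4 and 1 had an unadjusted p under 0.05). Neither was any of 20 basement membrane genes, 14 interstitial matrix genes or 11 membrane serine proteases and their inhibitors.

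Genes of plasminogen activation, another route of matrix breakdown, rose after castration in 3 of 7 cases and fell in the same 3 with testosterone. Plaur, the urokinase receptor, read 9.28, 8.75 and 8.01 in intact, 13.42, 13.14 and 12.11 in castrated, and 8.47, 11.68, 8.70 and 9.72 in regenerated arrays. Its castrated arrays were above all others, with regenerated replicate 2 next. It rose by 4.21 ± 0.74 log2 (SE; limma adjusted p = 0.00712) and fell by 3.25 ± 0.70 (adjusted p = 0.0252). Plat, the tissue plasminogen activator, rose by 3.28 ± 0.42 from 6.02 ± 0.22 (SD, n = 3) to 9.31 ± 1.06 (n = 3) and fell by 3.03 ± 0.39 (adjusted p = 0.00136 and 0.00186). Plgrkt, a plasminogen receptor, rose by 1.53 ± 0.22 and fell by 1.17 ± 0.20. The second call of Plaur ended without castrated replicate 1 (adjusted p = 0.0848) or 2 (0.0917), without regenerated replicate 1 (0.0509) or 3 (0.0674), and with only the 2 groups in the fit (0.0621).

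Among 11 other genes, listed as inhibitors of matrix proteases or as matrix proteins linked to them, 2 rose after castration. Thbs1, thrombospondin 1, a matrix protein that activates TGF-beta and slows metalloproteinase activation, had the largest change of the 123 genes. It read 11.21, 11.10 and 9.91 in intact, 16.70, 15.98 and 15.39 in castrated, and 10.44, 13.02, 11.24 and 12.04 in regenerated arrays. The castrated arrays stood clear of the rest. The rise was 5.28 ± 0.62 log2 (SE; limma adjusted p = 0.000847), and the fall with testosterone was 4.34 ± 0.58 (adjusted p = 0.0021). Cst3, the cathepsin inhibitor cystatin C, rose by 1.30 ± 0.20 (adjusted p = 0.00316), from 13.69 ± 0.09 (SD, n = 3) to 14.98 ± 0.07 (n = 3). It was at 15.14 ± 0.28 (n = 4) in regenerated arrays, 1.45 ± 0.18 above intact (adjusted p = 0.0477). This last call ended without any 1 of 8 arrays, all but regenerated replicates 1 and 4, with adjusted p up to 0.277, and under 3 other settings.

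The 3 Adamts genes that rose after castration were Adamts6 from a mean of 3.96 to 5.46, Adamts17 by 1.23 ± 0.22 log2 (SE) and Adamts9 by 0.78 ± 0.15 (limma adjusted p = 0.00229, 0.00814 and 0.00981). All 3 fell with testosterone, by 1.37, 0.96 and 0.82 (adjusted p = 0.0036, 0.0263 and 0.00727). None was above 6.40 in any array. Adamts17 passed the highest background value of its own array in 2 arrays, Adamts6 in 1 and Adamts9 in 0, so these are changes at or near background. The fall of Adamts17 was not called without regenerated replicate 1 (0.0588) or 2 (0.069) or with only the 2 groups in the fit (0.0714). Of the Adam proteases, which shed proteins from the cell surface, Adam15 fell by 1.08 ± 0.26 after castration (adjusted p = 0.0287), a call that ended without any 1 of intact replicates 1, 2 and 3 (0.114, 0.0891 and 0.0532) or castrated replicates 2 (0.0658) and 3 (0.101). Adam28 rose by 1.37 ± 0.34 with testosterone (adjusted p = 0.0463), a call that ended without any 1 of 7 arrays and under 3 other settings, with adjusted p up to 0.148.

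**Figure D4:**
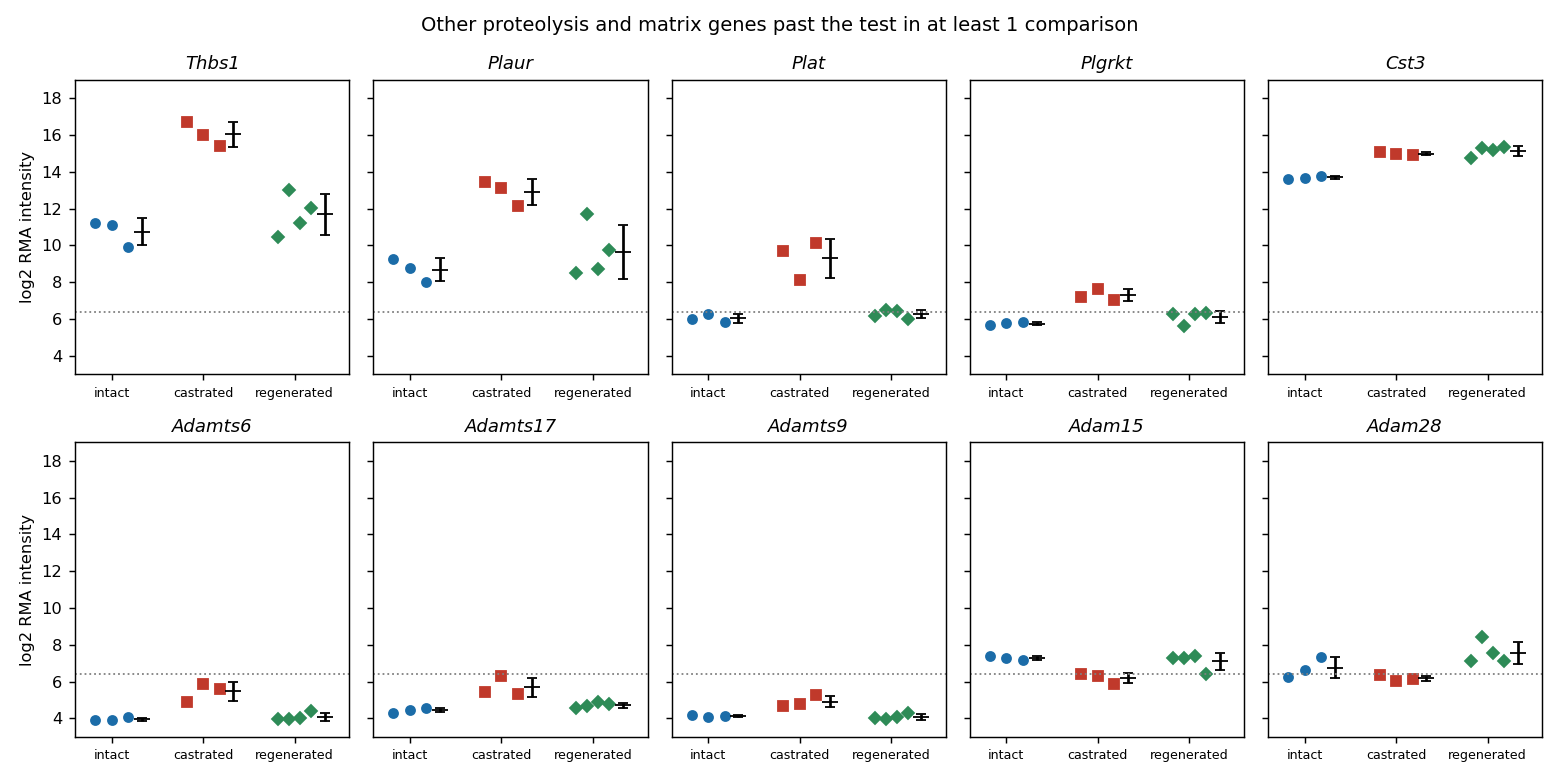
Log2 RMA intensity (vertical axis) of the 10 other genes of the lists that limma called in at least 1 comparison, in the 3 intact, 3 castrated and 4 regenerated arrays, where each point is 1 array, the black mark a group's mean with the SD, and the dotted line the highest background control value (6.40). Thbs1, Plaur and Plat are highest in castrated arrays, Cst3 stays near 15 after testosterone, and the 3 Adamts genes lie under the line.

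The genes whose levels over the 10 arrays ran most like those of Timp4 were Abo (Pearson r = 0.987), Papss2 (0.986), Med22 (0.986), Rgs2 (0.984) and Srm (0.984), out of 1796 genes that reached above 6.40 and varied by at least 2 log2. Abo, a glycosyltransferase gene, had means of 14.41, 4.22 and 13.58 in intact, castrated and regenerated arrays, and Rgs2, a regulator of G protein signalling, of 16.45, 9.75 and 15.22. In regenerated replicate 4, where Timp4 read 11.16, Abo was at 11.41 and Rgs2 at 13.66, both below their group means. For Dcn the closest were Aldh6a1 (r = 0.967), Cxxc4 (0.962), Uso1 (0.96), Rrbp1 (0.959) and Rab39b (0.954). Aldh6a1, a mitochondrial dehydrogenase, had means of 12.92, 8.84 and 12.08. These correlations describe arrays that fall into separate groups and share each group's difference, and they carry no test.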

How the data were processed

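Each sample was 1 ClariomD array of RNA from sorted luminal cells, with RNA integrity numbers of at least 9 per the labels' protocols. The deposited log2 values (72688 rows) are the authors' RMA output; the submitters' processing notes name RMA and Affymetrix Expression Console, without a version or genome build. RMA brings arrays to 1 common distribution, so a shift of all transcripts would be reduced. Array medians ran from 4.12 to 4.22. Arrays have no sequencing depth, and their number limits the precision.

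Rows were named by GEO's platform annotation, which can be old, with 827 symbols updated by gene identifier against RefSeq GRCm38.p6. Of 65956 non-control rows 30604 had 1 symbol, and 2146 with several were left out. A symbol repeated within a row counted as 1. Where a gene had more than 1 row, that of the highest mean was taken. No column was left unused.

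All 10 arrays were fitted in 1 model of 3 groups with limma 3.58.1 in R 4.3.3 (lmFit, eBayes with trend). Tests were two-sided, with Benjamini-Hochberg adjustment over 30142 genes, and an adjusted p under 0.05 was a call. The fit was tested on simulated data. Of the pathway lists, up to 3 called genes with the largest change per comparison are named, and the 5 genes most like Timp4 and Dcn. Members and lists were chosen with earlier results of these data known. Promoters came from a RefSeq table for GRCm38.p6.

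Alternatives were the replicate block, array weights, no trend, a filter that kept genes with a group mean above 6.40, centring, the mean of a gene's rows, only the 2 groups compared, and leaving out each array. Replicate numbers were not used to pair the arrays in the main fit.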

Additional observations from a re-analysis of the deposited data

Results flagged for a closer look

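Among the 4 regenerated arrays of each of the 9 members and 10 other named genes (19 in all), 3 genes had 1 array far from the rest, by the gap to the nearest array as a share of the group's range. Chance gives about 1 in 20 such groups. None of the 3 is a member. Adam15 was 6.44 in regenerated replicate 4, against 7.26 to 7.40 in the others. Adamts6 was 4.41 in regenerated replicate 4, against 3.96 to 4.00. Plgrkt was 5.63 in regenerated replicate 2, against 6.25 to 6.31.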

How the results depend on the processing

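Timp4 and Dcn kept the direction and the call of their rise from castrated to regenerated arrays under all 17 alternatives. These fits share the castrated arrays behind the choice of genes and are not independent of it. Some members with differences near 0 changed sign. Between castrated and intact arrays Mmp2 went from 0.03 to -0.06 log2 with centred arrays, and Adamts1 from 0.04 to -0.06 with centred arrays, -0.01 with array weights, -0.03 without intact replicate 3 and -0.01 without castrated replicate 3 (-0.03 to 0.11 over fits that left out 1 array). Between regenerated and castrated arrays Timp2 went from -0.17 to 0.02 with the replicate block, 0.05 with array weights and 0.02 without regenerated replicate 4 (-0.41 to 0.02 over such fits). The 3 comparisons were castrated against intact (the first), regenerated against castrated (the second) and regenerated against intact (the third). Over fits that left out 1 array, the members called were 2 to 3 in the second and 0 in the third. Over the same fits all genes called were 609 to 1881 higher and 410 to 1390 lower in the first, 290 to 1076 and 526 to 1051 in the second, and 0 to 71 and 0 to 9 in the third, against 1452, 962, 593, 907, 10 and 1 with all arrays. With array weights 2495 were called higher and 1763 lower in the first, 1032 higher in the second, and 65 and 5 in the third. With only the 2 groups compared the second had 344 and 478, and the third 0 and 0. In the third, 3 were higher with the replicate block, 2 higher and 0 lower with no trend, 21 higher with the filter on low values and 2 higher with centred arrays. The cause was not tested. Correlations of deviations from group means ran from -0.157 to 0.264 for arrays of the same number and from -0.322 to 0.246 for others. The ranges overlap, and 9 pairs of the same number are too few to exclude a pairing. With the replicate block 4 members were called between regenerated and castrated arrays, Timp3 added. Signal over background limits Timp1, Mmp2, Mmp14 and Adamts1, and the filter on low values left them untested.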
